A study of Arabidopsis thaliana with 4 samples.

Results

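The 10 core circadian clock genes of Arabidopsis thaliana, out of 27444 nuclear protein-coding genes, were examined for peaks of the transcription factor ANAC060. They were named by locus: LHY (AT1G01060), CCA1 (AT2G46830), PRR9 (AT2G46790), PRR7 (AT5G02810), PRR5 (AT5G24470), TOC1 (AT5G61380), GI (AT1G22770), ELF3 (AT2G25930), ELF4 (AT2G40080) and LUX (AT3G46640, PCL1 in the annotation). A peak was assigned to a gene when any of its bases touched the gene body or the 1 kb on either side of it.

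The plant clock is a loop of repressors that are made in turn through the day. The MYB-related factors CCA1 and LHY peak at dawn and repress evening genes. The pseudo-response regulators PRR9, PRR7 and PRR5 follow each other through the day and repress CCA1 and LHY, and TOC1 does so in the evening. ELF3, ELF4 and LUX form the evening complex, a nocturnal repressor. Sugars are known to feed back on this loop, PRR7 and GI being genes through which such an effect has been described.

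ANAC060 is a NAC-domain factor that has been connected with the response of seedlings to sugar. Its binding was mapped by chromatin immunoprecipitation and sequencing (ChIP-seq) in whole 10-day-old seedlings of the Columbia ecotype. The precipitates came from an anac060 mutant that carried ANAC060 fused to green fluorescent protein (GFP) under 35S, a viral promoter active in most tissues, and were taken with a polyclonal anti-GFP antibody. The controls were input DNA of wild-type Col-0 seedlings, with no antibody, so the precipitates and their controls differed in genotype as well. There were 4 libraries: a precipitate and an input from seedlings grown on medium with 6% glucose, and a precipitate and an input from seedlings grown without glucose. All seedlings were kept at 22 °C in constant light after 3 days of stratification, and neither the hour of harvest nor an earlier light-dark cycle is given in the labels. The protocol also names 6% sorbitol without saying which plants received it. Binding in a few cells and weaker binding in many cannot be told apart in whole seedlings.

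The values were the authors' 2 peak lists, each from 1 precipitate against 1 input, with the peak score that the authors deposited. The glucose list held 2859 peaks with scores from 30.02 to 3100 (median 57.65), and the no-glucose list held 4155 peaks with scores from 100.01 to 3100 (median 180.05). Scores were read only within a list, where a percentile of 100 is the highest score. The no-glucose list holds only 4155 of 7292 peak numbers, and the glucose list holds all of its own. A percentile in one list therefore cannot be set against a percentile in the other. With 1 library per condition no value below has a replicate error, and no difference between the lists was tested. Read depth is unknown. A gene without a peak in a list scored below the minimum of that list or was not called.

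Nearly all core clock genes had an ANAC060 peak in each list. With glucose 9 of the 10 had a peak, where 18.1% of all protein-coding genes did, and TOC1 was the exception. Without glucose 9 of the 10 had a peak, where 25.5% of all genes did, and ELF4 was the exception. In both lists a peak was found at 8 members, LHY, CCA1, PRR9, PRR7, PRR5, ELF3, LUX and GI, against 13.9% of all genes. No member lacked a peak in both lists, as 70.3% of all genes did. Longer genes offer more room for a peak, and 9 of the members were 2343 to 6040 bp long. Among the 10619 protein-coding genes of that length range, 21.0% had a glucose peak and 29.8% a no-glucose peak. The no-glucose list begins at a higher score. With only peaks that scored at least 100 counted, glucose peaks were left at 3 members, GI, LHY and CCA1, against 4.93% of all genes. The no-glucose count of 9 could not change, as that list begins at 100.01.

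**Figure D1:**
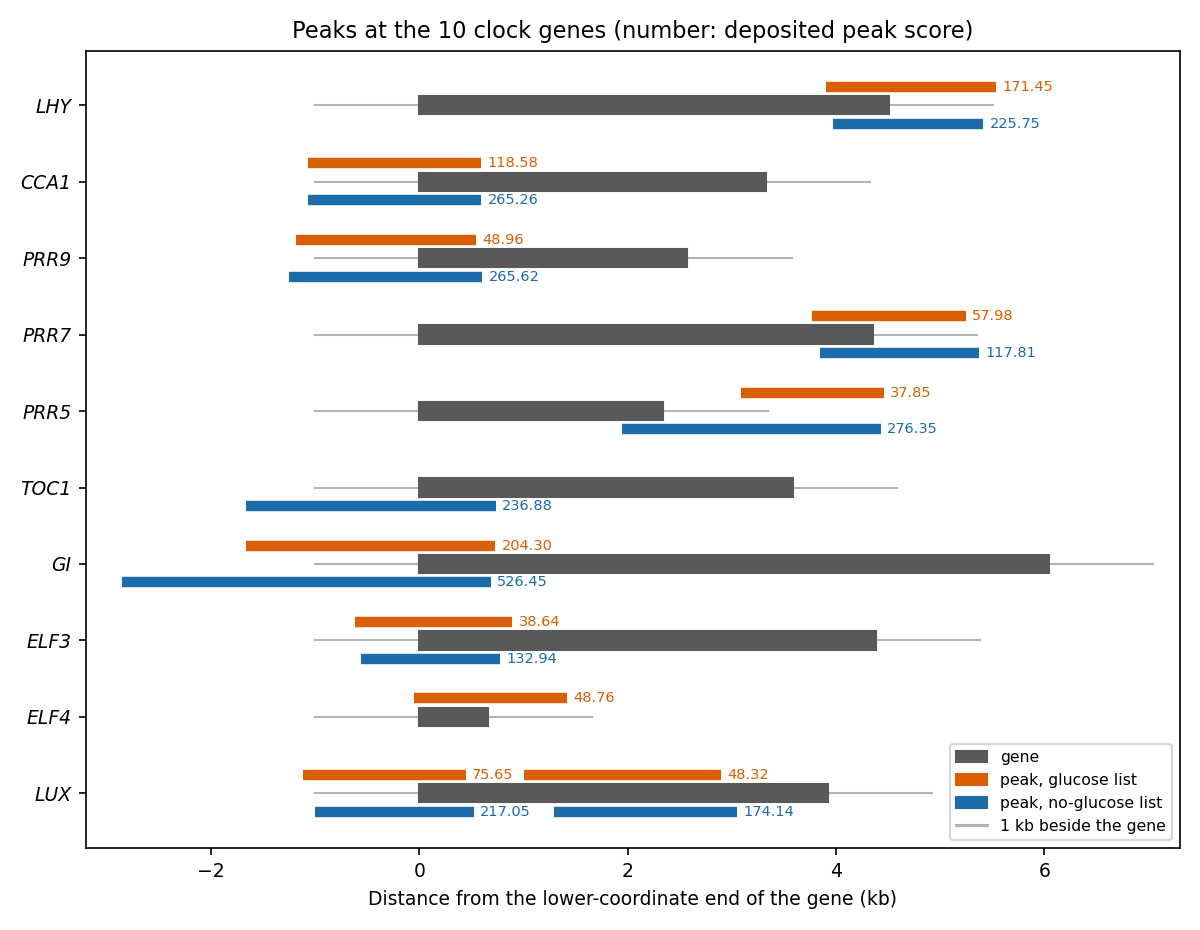
Peaks at the 10 clock genes, drawn to scale as distance in kb from the end of each gene with the lower coordinate; grey bars are genes, thin lines the 1 kb beside them, orange bars glucose peaks and blue bars no-glucose peaks, each with its deposited score. A peak lies over 1 end of most genes, and at 8 genes the peaks of both lists overlap, with a wider no-glucose peak at PRR5 and GI. TOC1 has a no-glucose peak alone and ELF4 a glucose peak alone, of a score below the lowest of the no-glucose list.

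The dawn genes LHY and CCA1 had 1 peak each in both lists. The LHY peak of the glucose list lay at chr1:37269-38905 (TAIR10) with a score of 171.45, rank 281 of 2859. In the no-glucose list it lay at chr1:37337-38778 with a score of 225.75, rank 1482 of 4155. LHY thus stood at the 90.2 percentile with glucose and at the 64.4 percentile without. At CCA1 the glucose peak lay at chr2:19244516-19246182 with a score of 118.58 (81.4 percentile). The no-glucose peak lay at chr2:19244525-19246183 with a score of 265.26 (72.5 percentile). The peak centres at CCA1 were 5 bp apart in the 2 lists, and those at LHY were 30 bp apart. Both genes lay in the upper part of both lists.

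The daytime pseudo-response regulators all had a peak in both lists, with modest scores in the glucose list. PRR9, the earliest of them in the day, had a glucose peak at chr2:19231420-19233152 with a score of 48.96 (39.1 percentile). Its no-glucose peak lay at chr2:19231357-19233211 with a score of 265.62 (72.6 percentile), and the centres were 2 bp apart. PRR9 and CCA1 are 10411 bp apart on chromosome 2, and no peak was shared by them. PRR7, which has been tied to the setting of the clock by sugar, had a glucose peak at chr5:641450-642929 with a score of 57.98, close to the median of the list (50.4 percentile). Its no-glucose peak, at chr5:641523-643056, had a score of 117.81 and the lowest place of the members in that list (16.2 percentile). PRR5 had the lowest glucose score of the members, 37.85 (20.2 percentile), at chr5:8359290-8360661. That peak did not touch the gene and began 744 bp beyond its end. Without glucose the peak at chr5:8358145-8360632 reached 402 bases into PRR5 and had a score of 276.35 (74.4 percentile). PRR9 and PRR5 were thus in the lower part of the glucose list and in the upper part of the no-glucose list. PRR7 was near the bottom of the peaks kept in the no-glucose list. The lists begin at different scores, so these places do not measure a change with glucose.

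Of the evening genes, GI had the highest score of all members in both lists. GI encodes a large plant-specific protein of the clock and of flowering time that stabilises the F-box photoreceptor ZTL. Its glucose peak, at chr1:8060090-8062478, had a score of 204.30 (rank 208, 92.8 percentile). The no-glucose peak, at chr1:8058891-8062437, had a score of 526.45 (rank 311, 92.5 percentile). It was the widest member peak, at 3547 bp, and most of it lay outside the gene. Its centre was 1087 bp outside GI, so GI had no no-glucose peak when the centre had to lie within 1 kb. TOC1, a pseudo-response regulator that binds and represses CCA1 and LHY, had a peak in the no-glucose list alone, at chr5:24673297-24675696 with a score of 236.88 (67.0 percentile). The nearest glucose peak lay beyond the other end of TOC1, 1643 bp away, at chr5:24680193-24681769 with a score of 108.81. It was therefore outside the 1 kb limit, and it was centred in AT5G61390. A no-glucose peak of 222.74 lay at the same place, 1713 bp from TOC1 and nearer to AT5G61390 and AT5G61400.

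The evening complex genes ELF3, ELF4 and LUX had peaks of low to middling score. ELF3, the scaffold of the complex, had a glucose peak at chr2:11058326-11059835 with a score of 38.64 (22.3 percentile). The no-glucose peak was at chr2:11058379-11059716 with a score of 132.94 (26.8 percentile). It was low in both lists. ELF4, a small protein that aids ELF3, had a glucose peak alone, at chr2:16734239-16735708 with a score of 48.76 (38.8 percentile). The no-glucose list begins at 100.01, so a peak of that score would not be listed there. The ELF4 peak was 1470 bp wide and covered the whole of the gene, the shortest of the members at 660 bp. The nearest no-glucose peak was 4837 bp away from ELF4. LUX, the GARP-family factor through which the complex binds DNA, was the only member with 2 peaks in each list. The first lay over an end of the gene, at chr3:17181926-17183484 with a score of 75.65 with glucose (64.5 percentile) and at chr3:17182037-17183562 with 217.05 without (62.2 percentile). The second lay wholly inside LUX, at chr3:17184047-17185936 with 48.32 (38.2 percentile) and at chr3:17184338-17186088 with 174.14 (47.7 percentile). LUX was the only member with a peak wholly inside the gene. A further glucose peak of 322.84, centred in RDUF1, ended 1518 bp before LUX and was not counted.

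**Figure D2:**
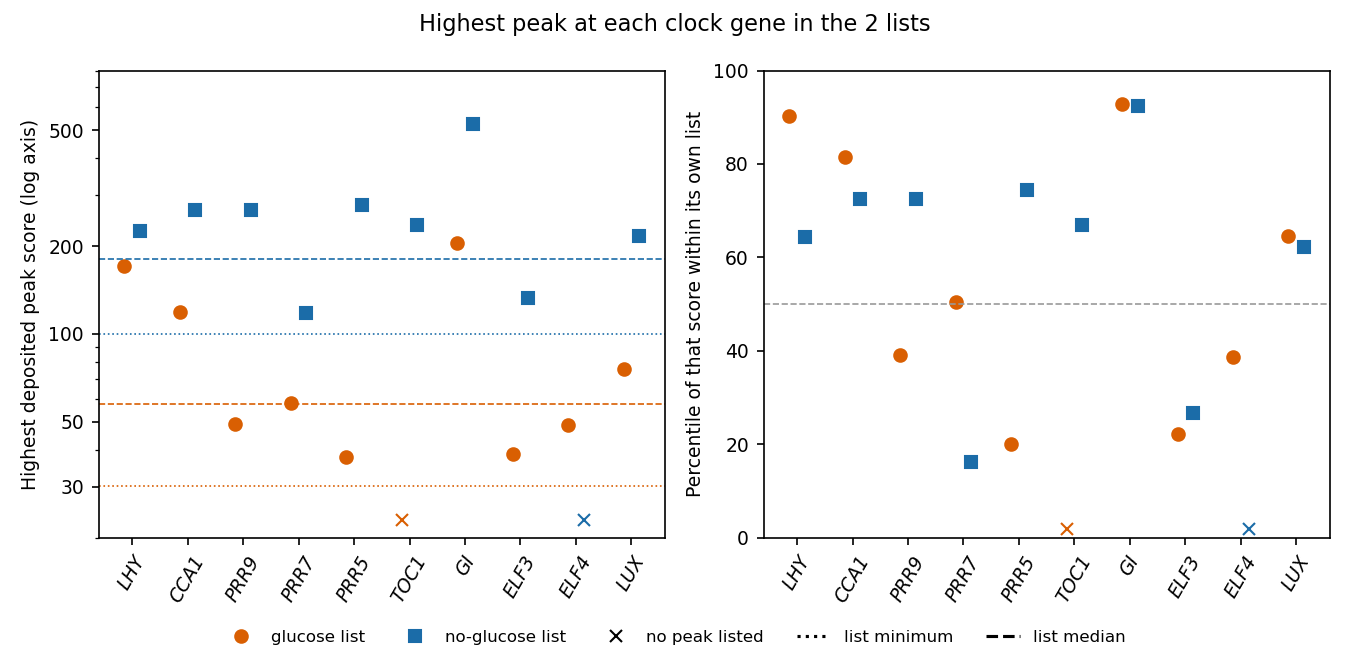
Highest peak score at each clock gene on a log axis (left) and its percentile within its own list (right), for the glucose list (circles) and the no-glucose list (squares); dotted lines are the lowest score of a list, dashed lines the median, and crosses mark a gene with no peak listed. GI is highest in both lists, at the 92.8 and 92.5 percentiles, and ELF3 is low in both, at 22.3 and 26.8.

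Ordered by their highest peak, the members with glucose were GI, LHY, CCA1, LUX, PRR7, PRR9, ELF4, ELF3 and PRR5, from 204 to 37.85. Without glucose the order was GI, PRR5, PRR9, CCA1, TOC1, LHY, LUX, ELF3 and PRR7, from 526 to 117.81. GI stood apart from the next gene without glucose, at 526 against 276.35 for PRR5, and less so with glucose, at 204.30 against 171.45 for LHY. Other neighbours were close. PRR9 and ELF4 had 48.96 and 48.76 in the glucose list, and PRR9 and CCA1 had 265.62 and 265.26 in the no-glucose list. With no replicates, no order among such neighbours can be set. The median of the highest scores was 58.0 over the 9 members listed with glucose, against 61.9 over the 4977 genes with a peak. Without glucose it was 237 over 9 members, against 192 over 6988 genes. In the glucose list 5 of 9 members were above the median peak score (55.6%, against 54.7% of all genes with a peak). In the no-glucose list 7 of 9 were (77.8%, against 54.9%). Member scores were thus spread over most of each list, from the 20.2 to the 92.8 percentile with glucose and from the 16.2 to the 92.5 percentile without.

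Peaks of both lists overlapped each other at 8 members, where 13.4% of all genes had such a pair. Most genes with a peak in both lists had one, 3672 of 3811, so this count adds little to the count of members in both lists. The 9 overlapping pairs, 2 of them at LUX, covered 84.6% to 100% of the glucose peak. Of the no-glucose peak they covered 54.0% at PRR5, 66.2% at GI and 91.3% to 100% elsewhere. Their centres were 2 to 33 bp apart at PRR9, CCA1, LHY and ELF3, and 94 to 222 bp apart at PRR7 and LUX. PRR5 and GI had the widest shifts, 587 and 620 bp, where the no-glucose peak was the wider. Over all 2151 overlapping pairs of the 2 lists the median distance of the centres was 167 bp.

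Most member peaks covered 1 end of the gene, as most peaks at all genes did. The exceptions were the inner LUX peaks, the ELF4 peak over the whole gene and the glucose peak beside PRR5. The gene table used here gives no strand, so the start and the end of transcription were not distinguished. With glucose 7 of 10 member peaks covered a single gene end (70.0%, against 65.6% of all 5472 gene-peak pairs), and without glucose 9 of 10 did (90.0%, against 69.5% of 7772 pairs). They covered the end with the lower coordinate at CCA1, PRR9, ELF3, LUX, GI and TOC1 and the other end at LHY, PRR7 and PRR5. Where both lists had such a peak, it was the same end. Into the gene they reached 443 to 892 bases with glucose and 402 to 773 bases without. The centre fell inside the gene only at ELF3 and at the inner LUX peak, in both lists (2 of 10 in each, against 26.2% of all pairs with glucose and 21.0% without). A centre within 500 bp of a gene end was seen for 8 of 10 pairs with glucose (80.0%, against 51.1%) and 7 of 10 without (70.0%, against 51.7%). Member peaks were about as wide as others. Their median width was 1598 bp with glucose and 1705 bp without, against 1673 and 1784 bp over the lists.

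Most of these peaks had a second gene nearby, so a peak does not name its target. Another protein-coding gene was within 1 kb of 7 of the 10 member peaks with glucose (70.0%, against 86.0% of all gene-peak pairs) and 8 of the 10 without (80.0%, against 84.9%). These include the inner LUX peaks and the ELF4 peak, which lie on the gene itself. The CCA1 peak was slightly nearer to PSI-P (AT2G46820). Its centre was 208 bp from PSI-P and 242 bp from CCA1 with glucose, and 213 and 237 bp without. At LUX the outer peak was nearer to AT3G46630, by 145 against 337 bp with glucose and by 239 against 243 bp without. The LHY peak lay between LHY and UMAMIT28, with its centre 216 and 357 bp from them with glucose and 186 and 387 bp without. PRR7 shared its peak with RHL2, at nearly equal distances of 259 and 265 bp in the no-glucose list. The ELF3 peaks in both lists, and the glucose peaks of GI and PRR5, had no other gene within 1 kb. The PRR5 peak without glucose had none either. Counting each peak for the gene nearest to its centre left 8 of 10 members in each list, CCA1 being the gene that dropped out, against 9.75% of all genes with glucose and 14.2% without.

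The wider clock was described by 41 further genes, listed from general knowledge of the clock but with earlier results of these data known. Of these 13 had a peak with glucose (31.7%, against 18.1% of all genes) and 19 without (46.3%, against 25.5%). A peak in both lists was found at 12 (29.3%, against 13.9% of all genes), and in neither at 21 (51.2%, against 70.3%). The glucose list alone had a peak at 1 (2.44%, against 4.25%). The no-glucose list alone had one at 7 (17.1%, against 11.6%). The shares of the 41 genes with a peak in each list, and in both lists, were below those of the core genes and above those of all genes. Counting only scores of at least 100, 3 of the 41 had a glucose peak (7.32%, against 4.93%).

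**Figure D3:**
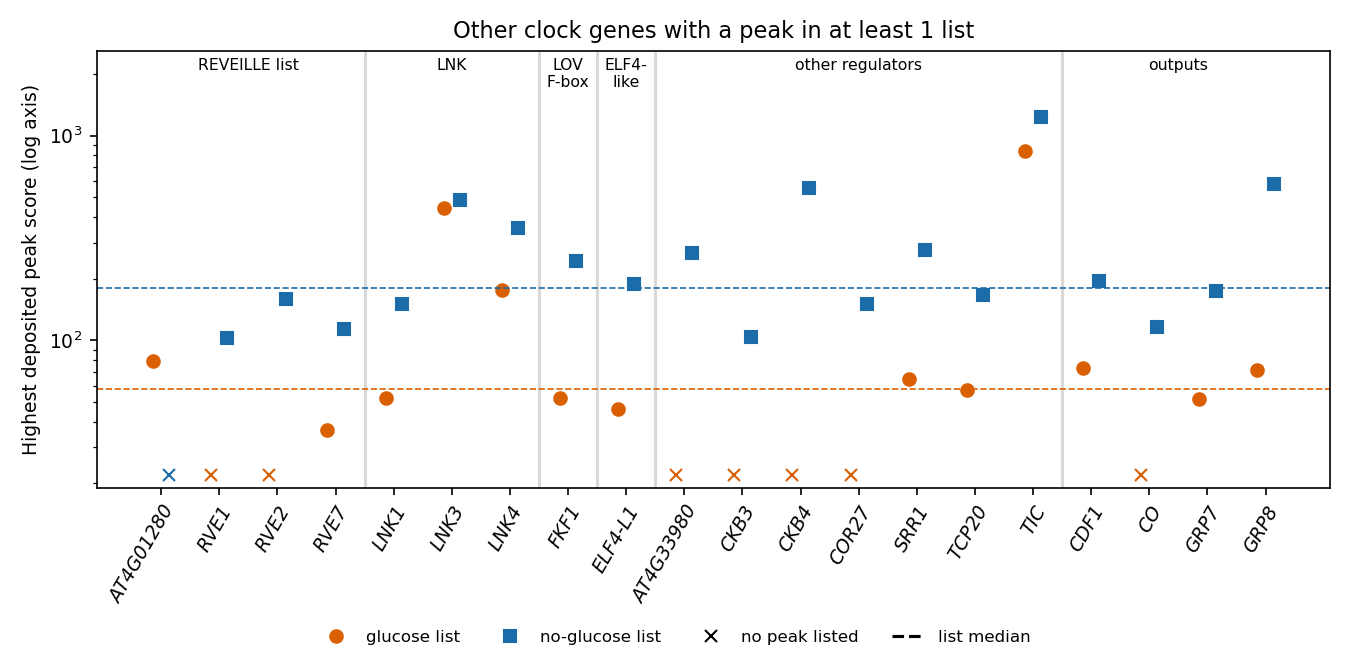
Highest peak score, on a log axis, at the 20 other clock genes with a peak in the glucose list (circles) or the no-glucose list (squares); crosses mark no peak listed and dashed lines the list medians. TIC and LNK3 are the highest with glucose, at 845 and 444, and TIC, GRP8 and CKB4 the highest without, at 1231, 582 and 557.

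The LNK genes, light-induced partners of the REVEILLE activators, had a peak in both lists at 3 of 4 (75.0%, against 13.9% of all genes). LNK3 had 444 with glucose (rank 44, 98.5 percentile) and 482 without (91.0 percentile), above every core gene in the glucose list. LNK4 had 175.41 (90.7 percentile) and 352.79 (83.1 percentile), and LNK1 had 52.18 and 150.71. LNK2 had none. The peak was centred in or within 136 bp of the gene at all 3. At LNK1 the no-glucose centre was nearer to AT5G64180, 113 bp away.

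The 8 loci listed as REVEILLE genes, MYB-related relatives of CCA1 and LHY, had 2 with a glucose peak (25.0%, against 18.1% of all genes) and 3 with a no-glucose peak (37.5%, against 25.5%). These small counts are near those shares. RVE7 (EPR1) was in both lists, at 36.36 and 113.29. RVE1 and RVE2 were in the no-glucose list alone, at 102.08 and 158.68. AT4G01280 was in the glucose list alone, at 79.26, below the lowest score of the no-glucose list. RVE8, RVE4, ASG4 and AT5G52660 had none. All these scores except that of AT4G01280 were below the list median. RVE1 and AT4G01280 shared their peaks with APG5 and AT4G01290, in which the centres lay.

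Of the LOV-domain F-box photoreceptors, which direct clock proteins to breakdown, FKF1 had a peak at 52.23 and 243.83, and ZTL and LKP2 had none. That was 33.3% in each list, against 18.1% of all genes with glucose and 25.5% without. Of the 4 ELF4-like genes only ELF4-L1 (25.0% in each list, near the shares of all genes) had peaks, of 46.36 and 187.59. Their centres were also inside CYP5. PRR3, CHE (a TCP factor that represses CCA1, TCP11 in the annotation) and BOA (a relative of LUX) had none in either list. The same held for 70.3% of all genes. ANAC060 peaks were listed at PRR9, PRR7 and PRR5 and not at PRR3, and at LUX and not at BOA. With most genes lacking a peak, these absences do not set PRR3 or BOA apart.

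The other regulators had a peak at 3 of 14 with glucose (21.4%, close to the 18.1% of all genes) and 7 of 14 without (against 25.5%). TIC, which keeps the clock running late in the night, had the highest scores, 845 and 1231. Those peaks were 7774 and 5537 bp wide and also lay over AOX1A, an alternative oxidase gene, with the centre 1037 bp from AOX1A and 3122 bp from TIC in the glucose list, and 2118 bp from AOX1A and 2041 bp from TIC in the no-glucose list. Each list had a second, lower peak at TIC, of 59.66 inside the gene with glucose and of 172.75 over its other end without. SRR1 had 64.42 and 276.79, with the centre inside RDUF2. TCP20 had 56.99 with glucose and 114.36 and 167.02 without. The peaks of 56.99 and 114.36 did not touch TCP20, lying 613 and 704 bp from it. Their centres lay in ARP2 with glucose and 13 bp from ARP2 without. CKB4, a casein kinase subunit gene, had 557 in the no-glucose list alone, with the centre 2481 bp away and nearer to AT2G44660 and AT2G44670. AT4G33980 (267.86), CKB3 (104.16) and COR27 were also in the no-glucose list alone, COR27 with a peak of 151.08 and another of 123.20 whose centre lay in SCP2. LWD1, LWD2, JMJD5, PRMT5, XCT, TCP22 and BZIP63 had none.

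Among output genes, 3 of 5 had a peak with glucose (against 18.1% of all genes) and 4 of 5 without (against 25.5%). GRP8 and GRP7, clock-controlled RNA-binding proteins, had 71.35 and 51.58 with glucose and 582 and 174 without. CDF1, a DOF factor that represses CO, had 2 peaks in both lists. The one beside the gene had 73.21 with glucose and 180.64 without, and the one over an end of it had 39.46 and 193.98. The centre of the peak beside the gene was nearer to AT5G62420, by 1153 against 1604 bp with glucose and by 1091 against 1666 bp without. CO, the photoperiod activator of flowering, was in the no-glucose list alone at 115.59, and FT, its target, in neither.

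**Figure D4:**
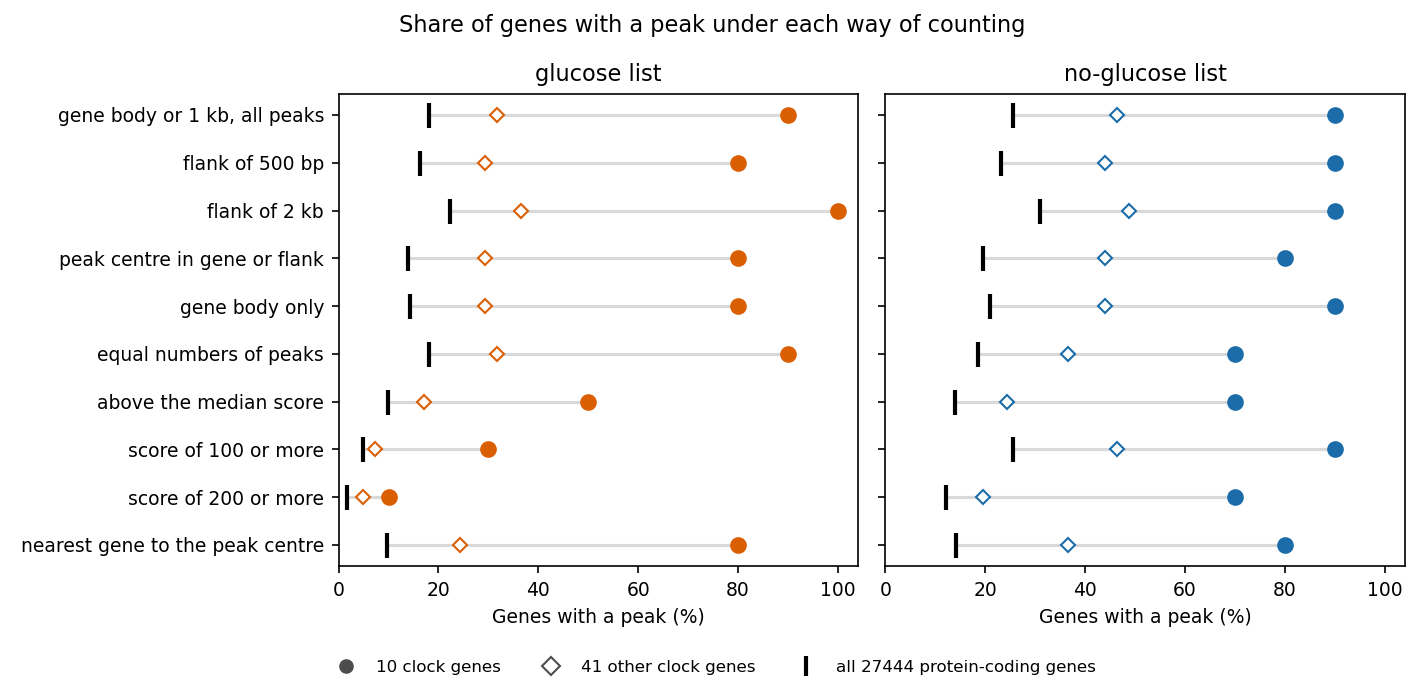
Share of genes in % with a peak in the glucose list (left) and the no-glucose list (right), for the 10 core clock genes (filled circles), the 41 other clock genes (open diamonds) and all 27444 protein-coding genes (bars), under 10 ways of counting. The core share is 10.0% to 100% with glucose and 70.0% to 90.0% without, and above the share of all genes in each way of counting shown.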

How the data were processed

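The submitters' processing notes name FastQC, BWA 0.7.15-r1140 and the build TAIR10. Each deposited list holds peaks called by the authors with MACS without its local background, per the file headers; for the glucose list the header also names a p of 0.001 and that no model was built. The deposited score is the peak caller's own value, and the sources used here do not define it. The no-glucose list holds 57.0% of its peak numbers (4155 of 7292), and how the others were removed is not given either. Without the local background, enrichment is judged against 1 genome-wide level, and local differences in the input are not modelled. A precipitate from plants without GFP was not analysed here.

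Peak starts were turned to 1-based positions. Genes came from the RefSeq table of TAIR10.1, and all 51 loci matched. Symbols were used only where that table pairs them with the locus. To check that positions are shared, centres were moved by 5 kb to either side. The share in gene bodies went from 48.6% to 66.6% and 67.2% (glucose) and from 38.4% to 66.5% each (no glucose). Strand, exons and sequence were not analysed here, so the planned motif search and the planned window at the start site were not run.

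Counts are descriptions, since 1 library per group allows no test. All 10 members were named, with every other clock gene in the upper part of either list and up to 4 more per role, and genes within 1 kb of a member peak. The members and lists were chosen with earlier results of these data known. Peak assignment was tested on simulated data. Python 3.11.15, numpy 2.4.6, pandas 2.3.3 and matplotlib 3.10.9 were used.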

Additional observations from a re-analysis of the deposited data

How the results depend on the processing

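Of 56 counts made under other settings, 42 stayed within 1.5 times of the reported count. These included every count with flanks of 500 bp or 2 kb, peak centres alone, gene bodies alone and flanks alone. They also included every count with equal numbers of peaks, 50% reciprocal overlap and centres within 250 bp, and 4 no-glucose counts under a score limit. Some of the 42 could not change. The no-glucose list begins at 100.01, so a limit of 100 dropped none of its peaks. The glucose list is the shorter, so equal numbers of peaks left it whole. The other 14 of the 56 counts were lower, and all of them came from dropping low-scoring peaks. At a score of 100 or more the members with a glucose peak were 3, those with a peak in both lists 3 and those with overlapping peaks 3, and the other clock genes with a glucose peak were 3, where 4.93% (glucose), 4.54% (both lists) and 4.44% (overlapping) of all genes were left. At 200 or more these counts were 1, 1, 1 and 2, and the other clock genes with a no-glucose peak were 8, where 1.69%, 1.55% and 1.54% of all genes and, without glucose, 12.1% were left. Above the median score of each list they were 5, 4, 4 and 7, and 10 for the no-glucose list, where 9.91%, 6.88% and 6.71% and, without glucose, 14.0% were left. Among members GI alone was left in both lists at 200 or more. With 2 kb flanks TOC1 gained a glucose peak, and with 500 bp flanks PRR5 lost its glucose peak. With peak centres alone PRR5 lost its glucose peak and GI its no-glucose peak. The distance to either gene end and the gene nearest to the centre were chosen after seeing the data, and all 12 of those counts stayed within 1.5 times. No paired analysis was possible because each group held 1 library. Unknown depth limits what a missing peak can mean.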

Other observations

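Some clock genes had a further peak outside the limit of 1 kb. The highest of those described here lay beyond ELF4, the member without a no-glucose peak of its own. It was 4837 bp from ELF4 at chr2:16739790-16748687, 8898 bp wide with a score of 1579.60 in the no-glucose list, and centred in AT2G40095. The glucose list had a peak of 128.54 there, 7823 bp from ELF4. Beside LUX, a glucose peak of 322.84 and a no-glucose peak of 229.41 were centred in RDUF1, 1518 and 1712 bp away, both higher than the peaks at LUX itself. PRR9 had a peak centred in ZAT (AT2G46800) beyond its other end, of 30.18 with glucose and 165.30 without, 1609 and 1474 bp away, both lower than the peaks at PRR9 itself. By contrast the next peak was farther away at PRR5, LHY and GI. It was 70738 bp from PRR5 with glucose and 18524 bp without, and 18572 and 18487 bp from LHY. For GI the distances were 9891 bp with glucose and 29269 bp without.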
